A study of Rattus norvegicus with 44 samples.

Results

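Transcripts of 10 genes for heat shock and protein folding chaperones were followed in the dentate gyrus (DG) of male F344 rats. The genes, chosen by name, were Hspa8, Hsph1, Dnaja1, Dnajb1, Hsp90aa1, Hspb1, Hspd1, Hspe1, Hspa5 and Clgn, and they are 10 of 18347 gene identifiers in the deposited table. Each identifier carrying one of these names was kept, and where a gene had more than 1 row in the table its rows were summed. All 10 passed the filter of a mean value of at least 5, which left 15598 genes for testing. Clgn was chosen because it differed between the 2 senolytic treatments in these libraries, so that its levels in the treated rats are given as a description with no test. No threshold entered the choice of the other 9 genes.

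The study compared young rats with older rats given vehicle or a senolytic, a drug meant to remove senescent cells. The 4 groups were young vehicle rats (YNG, n = 10, 6 months), aged vehicle rats (AV, n = 12), aged rats given ABT-263 at 12 mg/kg (AA, n = 11) and aged rats given dasatinib at 1.2 mg/kg with quercetin at 12 mg/kg (ADQ, n = 11). The older rats were 12 months old when treatment began and, by the study's methods, about 18 months old when tissue was taken. Doses went by oral gavage in Phosal 50 PG, PEG400 and ethanol for 5 days per cycle with breaks of 2 weeks, over 8 cycles in 6 months. A last round followed behavioural testing, 2 weeks before collection. ABT-263 inhibits anti-apoptotic BCL-2 family proteins, dasatinib is a tyrosine kinase inhibitor and quercetin is a plant flavonol. Each of the 44 libraries was made from the DG of 1 rat.

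Chaperones hold unfolded proteins and help them reach their native shape. In the cytosol HSP70 proteins bind exposed hydrophobic stretches, J-domain proteins deliver substrates and stimulate ATP hydrolysis, nucleotide exchange factors such as HSP110 release them, and HSP90 finishes a set of client proteins that includes steroid receptors and kinases. Small heat shock proteins hold aggregating proteins without ATP, HSP60 and HSP10 form the folding chamber of the mitochondrial matrix, and BiP with the lectin chaperones serves the endoplasmic reticulum (ER). Many of the cytosolic and mitochondrial genes are induced by heat shock factor 1 through repeats of the pentamer nGAAn, whereas ER chaperones are induced by the unfolded protein response through the ER stress element.

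Promoter sequence was taken from RefSeq (rat build GRCr8, whereas the authors aligned to rn6) as the 250 bases before the annotated start, which had an entry for 9 of the 10 genes. Heat shock pairs were searched as TTCNNGAA and GAANNTTC, which are each their own reverse complement, so that both strands are covered, and which can overlap one another. A pair was held by 13.5% of 33469 promoters of the same length, and at least 2 pairs by 1.75%. Hspa8 held 4 matches, Hsph1, Hspd1 and Hspe1 held 3, Hspb1 held 2, Dnaja1 and Dnajb1 held 1, and none was found in the windows of Hspa5 and Clgn. The ER stress element, searched on both strands as CCAAT and CCACG separated by 9 bases, was found in Hspa5 and in 0.0657% of all promoters. The windows printed are those of the genes whose values the results turn on, with 1 window standing for the head-to-head pair Hspe1 and Hspd1. They lie at chr3:38452766-38453015 (plus strand) for Hspa5, chr12:10427118-10427367 (plus) for Hsph1, chr5:60638154-60638403 (plus) for Dnaja1, chr19:41431142-41431391 (minus) for Dnajb1, chr12:26432302-26432551 (minus) for Hspb1, chr9:64084077-64084326 (plus) for Hspe1 and chr19:41633169-41633418 (minus) for Clgn. Each runs 5′ to 3′ along the strand of the gene, and capitals mark heat shock pairs or, in Hspa5, the parts of the ER stress element.
Hsph1: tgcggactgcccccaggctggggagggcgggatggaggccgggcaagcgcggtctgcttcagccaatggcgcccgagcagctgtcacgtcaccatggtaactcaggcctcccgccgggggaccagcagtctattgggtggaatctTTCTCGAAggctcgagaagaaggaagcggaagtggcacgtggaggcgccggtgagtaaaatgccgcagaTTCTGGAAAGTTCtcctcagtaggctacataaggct
Dnaja1: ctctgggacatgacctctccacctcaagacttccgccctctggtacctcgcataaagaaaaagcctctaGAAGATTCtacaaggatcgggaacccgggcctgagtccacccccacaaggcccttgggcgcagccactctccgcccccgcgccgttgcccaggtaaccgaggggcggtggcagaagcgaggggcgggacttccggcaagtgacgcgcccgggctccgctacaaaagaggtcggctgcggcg
Dnajb1: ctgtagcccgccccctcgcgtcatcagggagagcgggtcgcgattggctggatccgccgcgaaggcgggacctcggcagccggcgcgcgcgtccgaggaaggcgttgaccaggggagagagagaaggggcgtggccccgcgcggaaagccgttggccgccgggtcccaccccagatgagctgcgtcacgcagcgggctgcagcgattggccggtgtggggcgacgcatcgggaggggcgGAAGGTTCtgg
Hspb1: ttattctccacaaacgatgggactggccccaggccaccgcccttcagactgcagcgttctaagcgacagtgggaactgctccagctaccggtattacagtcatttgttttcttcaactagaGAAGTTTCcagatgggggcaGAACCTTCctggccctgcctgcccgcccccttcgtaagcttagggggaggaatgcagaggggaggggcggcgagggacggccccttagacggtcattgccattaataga
Hspe1: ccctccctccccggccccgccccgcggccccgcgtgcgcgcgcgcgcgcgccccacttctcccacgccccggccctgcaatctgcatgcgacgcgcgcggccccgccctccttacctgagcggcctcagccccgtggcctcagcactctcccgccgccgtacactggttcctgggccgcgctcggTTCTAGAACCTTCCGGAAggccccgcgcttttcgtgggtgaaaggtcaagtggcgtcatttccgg
Hspa5: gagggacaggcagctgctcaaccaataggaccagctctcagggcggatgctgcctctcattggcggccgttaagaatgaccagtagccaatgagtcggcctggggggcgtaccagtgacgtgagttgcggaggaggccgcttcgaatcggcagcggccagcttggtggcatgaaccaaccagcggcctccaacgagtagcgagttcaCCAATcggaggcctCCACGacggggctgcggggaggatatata
Clgn: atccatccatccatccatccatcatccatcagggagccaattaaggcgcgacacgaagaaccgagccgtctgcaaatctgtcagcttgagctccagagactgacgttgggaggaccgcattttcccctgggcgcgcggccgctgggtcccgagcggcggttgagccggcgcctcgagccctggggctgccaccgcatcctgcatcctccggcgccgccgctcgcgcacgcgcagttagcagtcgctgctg
In Hsph1 the matches began 105, 36 and 31 bases before the start, and in Hspe1 65, 60 and 55 bases before it. The matches of Hspb1 began 129 and 109 bases before the start, that of Dnaja1 181 and that of Dnajb1 11 bases before it. A match is a run of letters and not evidence that a factor binds there.

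Values are normalised read counts from the authors' median ratio scaling, which sum to between 14297964 and 20579982 per rat. They are read within a gene and not between genes, since no transcript length enters them. Rat numbers fell into series a (V1 to V6 and older rats up to 4011) and series b (V9 to V12 and older rats from 4031), which the labels do not name as batches. A single repetitive transcript, AABR07000398.1, took 0.422 to 1.6% of the total among series a rats, against 1.71 to 11.1% among those of series b, and was above 5% in 8 rats. In series b the AV rats were numbered 4566 to 4572 and the treated rats 4031 to 4110, so that treatment and block of numbers cannot be told apart there. Values within each series are therefore given beside the results. Of 9 listed markers of dentate granule cells 7 were measured, and their summed value lay between 5821 and 22970. Markers of CA1 pyramidal cells were present in every group too, with 6 of 7 measured and sums of 5834 to 46310, the lowest in AV and the highest in AA.

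**Figure D1:**
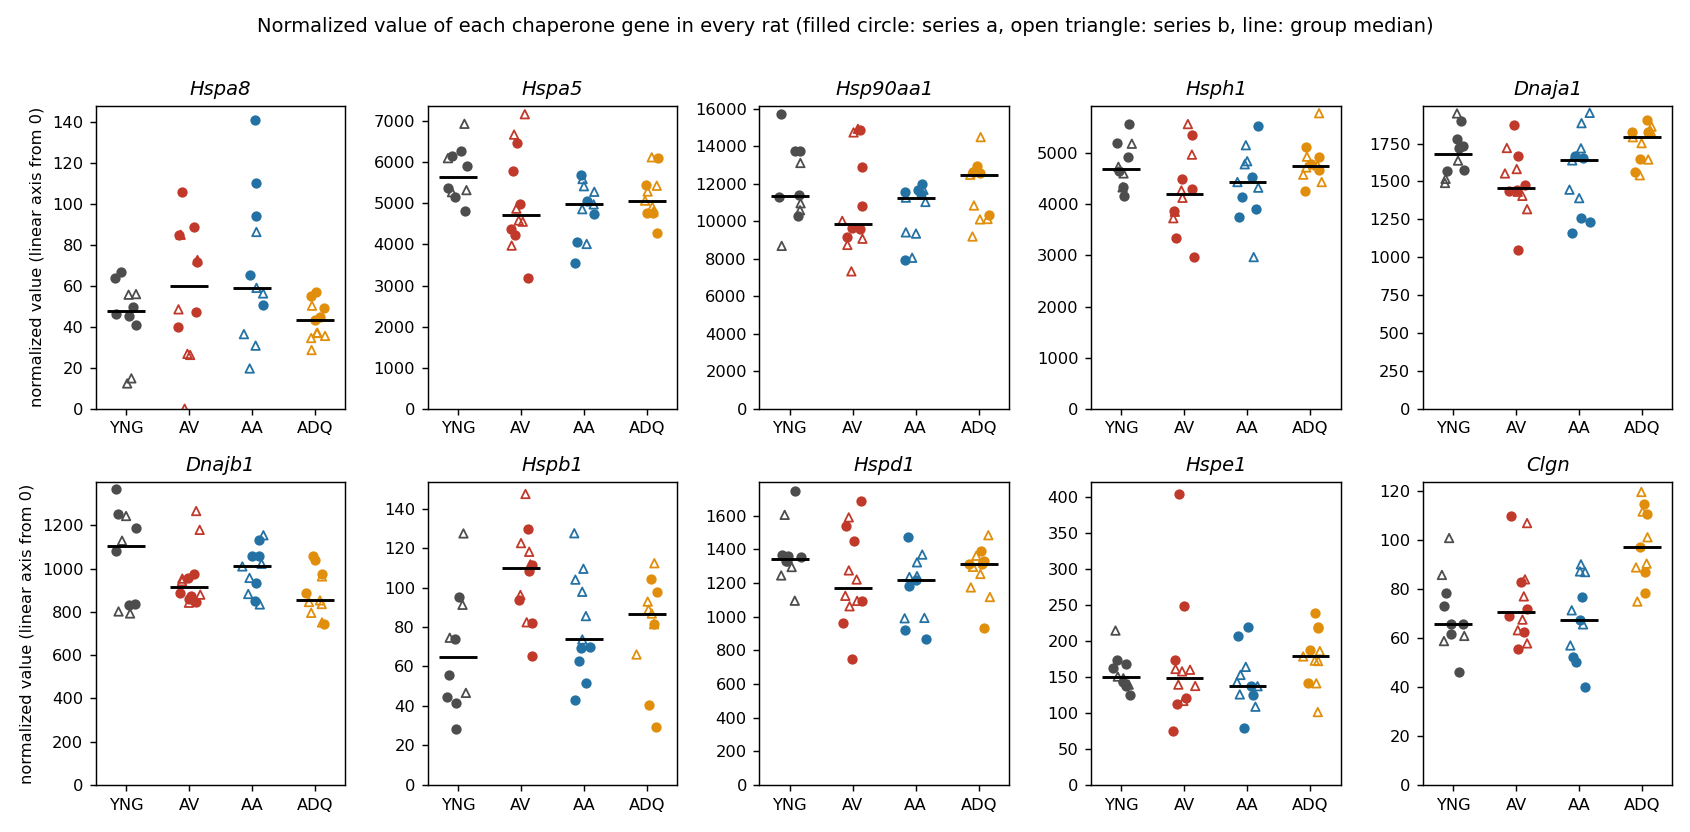
Normalised read count (linear axis from 0) of each of the 10 chaperone genes in every rat, by group, with filled circles for series a, open triangles for series b and a line at the median of each group. The groups overlapped for all 10 genes, and Clgn in ADQ lay from 74.86 to 119.6 against 39.87 to 90.05 in AA.

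At an unadjusted p, Hspb1 was called higher in AV than in YNG and 3 of the 10 chaperone genes lower. The 3 lower calls were lost with upper quartile and with total scaling. At the study's threshold, an unadjusted p below 0.05 in limma, 1 of the 10 genes was higher in AV than in YNG. That is near the share of 10.6% over all genes tested. Another 3 (Hsph1, Dnaja1 and Hspa5) were lower, against 10.7%. The median difference over the 10 genes was -0.13 on the log2 scale, beside -0.0017 over all genes. No chaperone gene reached an adjusted p of 0.05 in any comparison, the smallest being 0.0559 for Hspb1. Every log2 difference here is of log2(value + 1). In bulk tissue, fewer cells of a type and less RNA per cell cannot be told apart.

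In the treated groups compared with YNG, 9 genes were counted, since Clgn was chosen on values of these rats. The 3 comparisons share the YNG rats. In AA none was higher (12.6% of all genes) and 2, Hspa5 and Hspd1, were lower (14.1%). In ADQ none was higher (13.5%) and 1, Dnajb1, was lower (14.6%). The unadjusted counts stand near those background shares.

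Among the older groups, Dnaja1 and Hsph1 were higher in ADQ than in AV, 2 of 9 genes against 3.42% of all genes tested. Hspb1 was lower in ADQ than in AV, 1 of 9 against 5.9%. No gene passed between AA and AV, where 1.4% of all genes were higher and 3.1% lower, and the nearest was Hspb1 (p = 0.0552), which passed with series as a covariate (p = 0.0238). Between AA and ADQ none was higher in AA (2.13%) and 1, Dnaja1, was lower (2.4%). The comparisons of AA and of ADQ with AV share the AV rats. All these adjusted p-values were at least 0.347.

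The counts against YNG depended on scaling. Scaling every library to the same total moved the median of all genes relative to YNG on the log2 scale, for AV by 0.10, for AA by 0.15 and for ADQ by 0.14. Among all genes called, the share that was higher moved from 49.6% to 61.0% with upper quartile scaling and 81.1% with total scaling in AV against YNG. For AA against YNG the corresponding shares were 47.2% and 85.3% with total scaling, and for ADQ against YNG 48.0% and 82.6%. Between older groups the share moved from 31.2% to 52.6% in AA against AV, from 36.7% to 47.8% in ADQ against AV, and from 47.0% to 61.9% in AA against ADQ. The 3 lower calls in AV were not past the threshold with upper quartile scaling (p = 0.0675 for Dnaja1, 0.0701 for Hspa5 and 0.0732 for Hsph1) or total scaling (p = 0.403, 0.23 and 0.335).

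**Figure D2:**
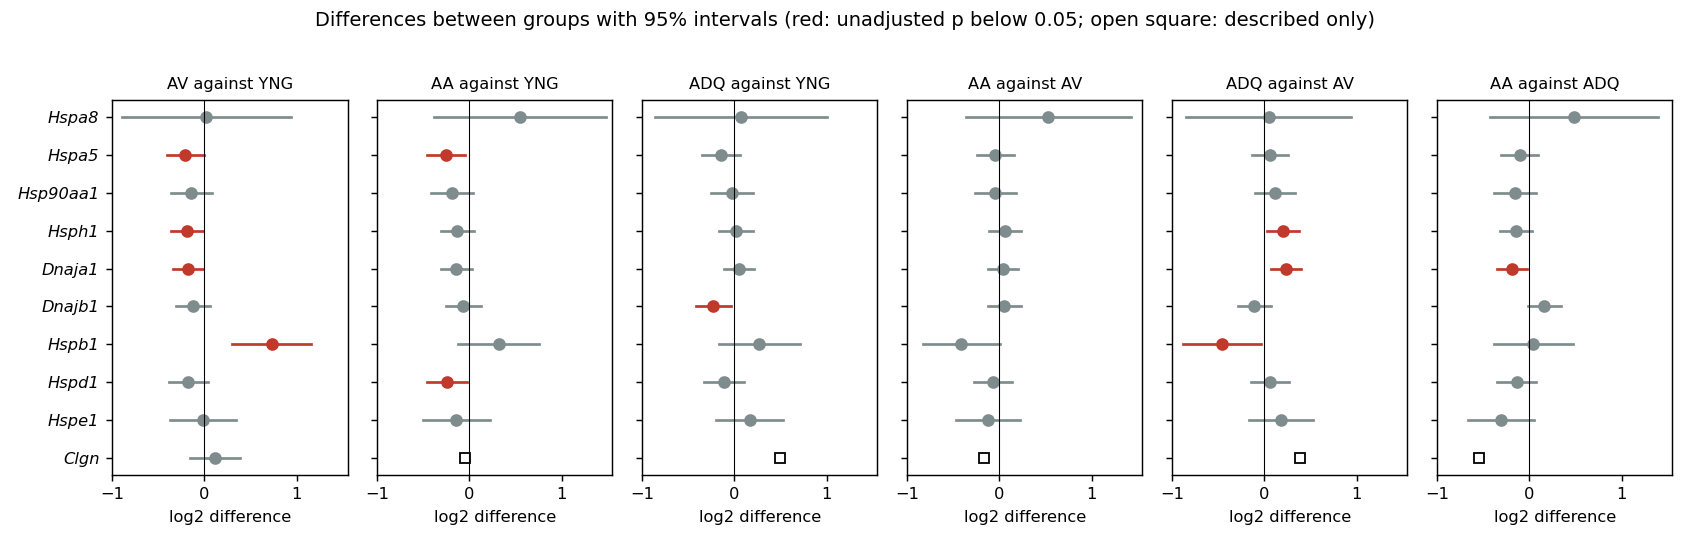
Log2 difference of each chaperone gene in the 6 comparisons, from the fit of all 4 groups, with bars for 95% intervals. Red marks an unadjusted p below 0.05, and open squares without a bar mark Clgn where it is only described. Hspb1 in AV against YNG (0.73) was the only higher call against YNG among the 10 genes, and the calls between older groups were Dnaja1, Hsph1 and Hspb1.

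Hsph1 encodes an HSP110 protein, a nucleotide exchange factor for HSP70. It lay at 4172, 4696 and 5567 in YNG (lowest, median and highest rat) and at 2963, 4201 and 5572 in AV. In AA the values were 2968, 4437 and 5532, and in ADQ 4256, 4761 and 5785. AV rats reached further down than YNG rats, 6 of 12 lying below the lowest YNG rat, while every ADQ rat lay above the AV median. AV was lower than YNG by 0.19 ± 0.09 on the log2 scale (SE, p = 0.039, adjusted p = 0.21), with -0.27 in series a and -0.10 in series b. ADQ was higher than AV by 0.20 ± 0.09 (p = 0.0228, adjusted p = 0.461), with 0.25 and 0.15 in the 2 series. Without AV rat 4009 the latter gave p = 0.062. ADQ and YNG differed by 0.02 with a 95% interval of -0.17 to 0.20, and AA and AV by 0.06 with an interval of -0.12 to 0.23. By mean level the order was ADQ (4817), YNG (4771), AA (4399) and AV (4238), and no neighbours in it passed the threshold.

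Dnaja1 encodes a J-domain partner of HSP70 that takes part in protein folding and import. Near-identical copies are annotated for it (4 named pseudogenes in RefSeq), so that its values are uncertain where reads were split between them. It lay at 1490, 1680 and 1949 in YNG and at 1047, 1460 and 1873 in AV. Its values were 1161, 1639 and 1953 in AA and 1541, 1792 and 1903 in ADQ. The ADQ rats formed the tightest group, with a coefficient of variation of 7.15% against 17.2% in AA, and every ADQ rat lay above the AV median. In AV 7 of 12 rats lay below the lowest YNG rat. AV was lower than YNG by 0.18 ± 0.08 (p = 0.0313, adjusted p = 0.19), with -0.22 in series a and -0.13 in series b. ADQ was higher than AV by 0.23 ± 0.08 (p = 0.00559, adjusted p = 0.347), with 0.25 and 0.21 by series. The p stayed below 0.05 when any 1 of the 44 rats was left out, and was 0.0571 in series a alone and 0.034 in series b alone. AA was lower than ADQ by 0.19 ± 0.08 (p = 0.0235, adjusted p = 0.981), with -0.34 in series a and -0.06 in series b (p = 0.508 there). That call was lost with total scaling (p = 0.0545) and with array weights (p = 0.072). ADQ had the highest mean (1744), followed by YNG (1687), AA (1546) and AV (1496). Neighbours in that order did not pass the threshold.

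Dnajb1, the J-domain protein HSP40 that is induced with HSP70 by heat, occupied 2 rows of the table, with means in YNG of 343.0 and 708.7. Summed, it lay at 792.6, 1104 and 1368 in YNG and at 842.1, 914.7 and 1266 in AV. In AA it lay at 834.3, 1010 and 1154, and in ADQ at 742.9, 852.9 and 1056. All 11 ADQ rats were below the YNG median, and 6 of 10 YNG rats were above the highest ADQ rat. ADQ was lower than YNG by 0.23 ± 0.09 (p = 0.0175, adjusted p = 0.102), with -0.20 in series a and -0.21 in series b. The difference shrank to -0.09 with total scaling (p = 0.238) and to -0.02 with the library total as a covariate (p = 0.765). Without YNG rat V3, the highest of its group, p was 0.0524. The AV rats (-0.12, p = 0.187) and the AA rats (-0.07, p = 0.477) did not pass against YNG. AA lay above ADQ by 0.16 (p = 0.0795), and passed with total scaling (0.17, p = 0.0214).

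Hspa8 encodes the constitutive cytosolic HSP70. It has 33 named pseudogenes in RefSeq, and its values in the table are uncertain for that reason. The listed values were low, with a mean of 53.9 over all rats, at percentile 22.6 of the tested genes. Their differences may therefore not stand for those of the whole transcript. Values lay at 12.33, 47.91 and 66.7 in YNG and at 0.00341, 60.03 and 105.9 in AV. AA rats had 19.65, 59.06 and 140.9 and ADQ rats 28.66, 43.35 and 57.17. The spread was wide in all groups, and in each of them the mean was higher in series a than in series b (52.07 and 34.72 in YNG, 73.03 and 43.21 in AV, 92.25 and 48.11 in AA, 49.97 and 37.2 in ADQ). AV differed from YNG by 0.02 ± 0.45 (p = 0.962), and without AV rat 4568, which was listed at 0.00341, by 0.51 (p = 0.0844). In no comparison over all rats did Hspa8 pass the threshold, and in series a alone AA stood above YNG by 0.75 (p = 0.0075) and above ADQ by 0.79 (p = 0.00687).

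Hsp90aa1 encodes the inducible cytosolic HSP90, for which 16 named pseudogenes are annotated. Its values lay at 8686, 11350 and 15730 in YNG and at 7327, 9827 and 14930 in AV. In AA they were 7931, 11260 and 12000, and in ADQ 9187, 12480 and 14490. No rat of any older group exceeded the highest YNG rat, and the groups overlapped over most of their range. No difference passed the threshold, the 95% interval being -0.36 to 0.08 for AV against YNG, -0.41 to 0.04 for AA against YNG and -0.26 to 0.20 for ADQ against YNG. With array weights AV (-0.39, p = 0.000197), AA (-0.28, p = 0.00478) and ADQ (-0.19, p = 0.0406) passed against YNG, and ADQ against AV (0.20, p = 0.0297). The constitutive partner gene Hsp90ab1 stood higher in ADQ than in AV by 0.14 (p = 0.0373, adjusted p = 0.511), and by 0.12 with p = 0.0813 without AV rat 4009.

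Hspb1 (HSP27), a small heat shock protein found in blood vessels and in reactive glia, rose the most with age of the 10 genes. The values were 28.36, 64.89 and 127.4 in YNG and 65.32, 109.8 and 147.4 in AV. In AA they were 42.95, 73.67 and 127.5, and in ADQ 29.19, 86.8 and 112.3. All 12 AV rats lay above the YNG median, and 5 of 10 YNG rats lay below the lowest AV rat. AV was 1.66 times YNG, a log2 difference of 0.73 ± 0.21 (p = 0.00144, adjusted p = 0.0559), with 0.86 in series a and 0.47 in series b. That call held in every alternative and with any 1 rat left out, and p ranged up to 0.0418 in series b alone. ADQ was lower than AV by 0.46 ± 0.21 (p = 0.0344, adjusted p = 0.499), with -0.60 in series a and -0.35 in series b. AA lay below AV by 0.41 ± 0.21 (p = 0.0552), with -0.71 in series a and -0.18 in series b, and passed with series as a covariate (-0.43, p = 0.0238) and in the fit of the 2 groups alone (p = 0.0194). Both treated groups lay above YNG by 0.32 (AA, p = 0.155) and 0.27 (ADQ, p = 0.221), and 1 of 11 rats in each of them exceeded the AV median. These 2 differences passed with total scaling (0.46, p = 0.0244, and 0.41, p = 0.045) and in a fit with the library total as covariate, added after the data were seen (0.75, p = 0.000673, and 0.68, p = 0.0016), which also gave 1.03 for AV against YNG and took ADQ against AV to p = 0.056. Means ran from AV (105.7) through AA (81.29) and ADQ (80.11) to YNG (67.9), and neighbours in that order did not pass the threshold.

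Markers of other cell types moved in the same comparisons as Hspb1. Over all genes 10.6% were higher in AV than in YNG. The shares lower than in AV were 5.9% in ADQ and 3.1% in AA. Of 8 endothelial markers 6 were measured, and all 6 were higher in AV than in YNG, while 4 of them were lower in ADQ than in AV and 2 in AA than in AV. Their summed value lay between 1253 and 4134 in YNG, 2163 and 8373 in AV, 2239 and 3495 in AA, and 2180 and 2781 in ADQ. Oligodendrocyte markers were higher in AV than in YNG for 7 of 8 genes and lower in ADQ than in AV for 5 of 8. Microglial markers were higher in AV for 2 of 8 and lower in ADQ than in AV for 5 of 8, with sums of 4284 to 7251 in YNG, 5159 to 10110 in AV, 4680 to 7684 in AA and 4550 to 6092 in ADQ. Astrocyte markers were higher in AV than in YNG for 3 of 8, T and NK cell markers for 3 of 4 and red blood cell markers for 1 of 4, and 1, 3 and 4 of them were lower in ADQ than in AV. Of the lists for granule cells, CA1, CA3 with mossy cells, choroid plexus and meninges, none had more than 1 gene past the threshold between AV and YNG. The part of these cells in the difference of Hspb1 was not tested. Within groups, Hspb1 followed the endothelial markers from rat to rat with r = 0.31 (rho = 0.273) and the microglial markers with r = 0.356 (rho = 0.417), and neither passed after adjustment over 120 relations (permutation test, adjusted p = 0.149 and 0.101 for r).

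Hspd1 (HSP60) and Hspe1 (HSP10) form the folding chamber of the mitochondrial matrix and share a promoter region. RefSeq names 20 pseudogenes and 2 like-genes for Hspd1 and 1 pseudogene for Hspe1, so that both are uncertain where reads were split. Hspd1 lay at 1094, 1341 and 1748 in YNG, at 750.7, 1172 and 1687 in AV, at 865, 1215 and 1472 in AA and at 934.4, 1310 and 1483 in ADQ. Only 2 of 11 AA rats lay above the YNG median. AA was lower than YNG by 0.25 ± 0.11 (p = 0.027, adjusted p = 0.136), with -0.34 in series a and -0.13 in series b. Total scaling brought the difference to -0.10 (p = 0.376). AV lay below YNG by 0.17 ± 0.11 (p = 0.107). ADQ lay below YNG by 0.11 ± 0.11 (p = 0.305).

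Hspe1 lay at 125.7, 149.5 and 214.7 in YNG, at 75.23, 148.7 and 404.6 in AV, at 78.91, 138 and 219.6 in AA and at 101.3, 178.7 and 238.9 in ADQ. AV spread furthest, since it held both the lowest rat (4009) and the highest (3989) of all groups. Hspe1 did not pass in any comparison, and with array weights it passed in ADQ against AV (0.30, p = 0.0225) and in AA against ADQ (-0.31, p = 0.0177). Its 95% interval for AV against YNG was -0.38 to 0.34, and for AA against ADQ -0.66 to 0.05. Hspa9, the mitochondrial HSP70 that hands proteins on to this chamber, was higher in ADQ than in YNG by 0.36 (p = 0.00184, adjusted p = 0.0372), with 0.55 in series a and 0.14 in series b. It lay above YNG by 0.17 in AV (p = 0.109) and by 0.18 in AA (p = 0.0955). Both passed with total scaling (p = 0.045 and 0.0186).

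Hspa5 encodes BiP, the HSP70 of the ER and a classical target of the unfolded protein response. It lay at 4811, 5648 and 6938 in YNG and at 3172, 4728 and 7172 in AV. The AA values were 3553, 4975 and 5696 and the ADQ values 4273, 5066 and 6122. In AV 6 of 12 rats lay below the lowest YNG rat, yet the highest rat of all groups, 4572, was an AV rat too. AV was lower than YNG by 0.21 ± 0.10 (p = 0.0458, adjusted p = 0.225), with -0.25 in series a and -0.18 in series b. AA was lower than YNG by 0.25 ± 0.10 (p = 0.0185, adjusted p = 0.113), with -0.29 and -0.23 by series, and by 0.10 (p = 0.249) with total scaling. ADQ lay below YNG by 0.15 ± 0.10 (p = 0.161). YNG had the highest mean (5736), followed by ADQ (5181), AV (5071) and AA (4841), and no neighbours in that order passed the threshold. The ER-resident HSP90 gene, Hsp90b1, passed in no comparison, and its interval for AV against YNG was -0.18 to 0.22.

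Clgn encodes calmegin, a lectin chaperone of the ER related to calnexin and best known from the testis, where it is needed for sperm surface proteins. It lay at 45.98, 65.77 and 100.8 in YNG and at 55.45, 70.56 and 109.9 in AV. The AA values were 39.87, 67.39 and 90.05 and the ADQ values 74.86, 97.16 and 119.6. All 11 ADQ rats lay above the AA, AV and YNG medians. In ADQ 7 of 11 rats lay above the highest AA rat and 7 of 11 AA rats lay below the lowest ADQ rat, while 4 rats of each group overlapped. The mean was 67.7 ± 16.7 in AA (SD, n = 11) and 97.6 ± 15.1 in ADQ (SD, n = 11), a log2 difference of -0.55 for AA against ADQ, with -0.78 in series a and -0.36 in series b. ADQ stood above AV by 0.38 and above YNG by 0.50, whereas AA differed from AV by -0.17 and from YNG by -0.05. The difference between AA and ADQ led to the choice of Clgn and the other comparisons of treated rats share its values, so none of them carries a test. The difference between AV and YNG did not enter the choice, and it was 0.12 ± 0.14 (p = 0.402, 95% interval -0.16 to 0.39).

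Directions of small differences changed with scaling for several genes. With total scaling the sign against YNG turned for Hspe1 in AV, for Hsph1, Dnaja1, Dnajb1, Hspe1 and Clgn in AA, and for Hsp90aa1 and Hspd1 in ADQ. Upper quartile scaling turned it for Hspe1 in AV and Hsp90aa1 in ADQ. Between AA and AV, Hspa5 and Hsp90aa1 turned with total scaling. None of the tested ones had passed the threshold. The difference between AV and YNG did not change between series a and series b beyond its error for any of the 10 genes in an interaction test, which 21.8% of all genes passed at an unadjusted p below 0.05.

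Individual rats carried several of the low values. AV rat 4009 was the lowest of its group in 6 of the 10 genes, and it also had the highest summed value of all rats for choroid plexus markers (1451) and for T and NK cell markers (815.8). The part of those cells in its chaperone values was not tested. Without it the count for AV against YNG fell from 4 to 1 and that for ADQ against AV from 3 to 2. AA rat 3988 was the lowest of its group in 5 genes, and YNG rat V11 in 4. At the upper end, AV rat 4572 and ADQ rat 4106 were each the highest of their group in 4 genes.

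From rat to rat within groups, Hspa5, Hsp90aa1, Hsph1, Dnaja1 and Hspd1 were positively correlated in each of their pairs, with r from 0.372 to 0.727. After each rat was centred on its group mean, 35 of the 45 pairs of genes had a positive Pearson r over the 44 rats, the median r was 0.283, and 19 pairs passed an adjusted p of 0.05 in a permutation test, all of them positive. The closest pair was Hspa5 and Hsph1 (r = 0.727, rho = 0.645), with 0.628 in series a and 0.854 in series b, and 0.625 without the 2 rats farthest from the median. For this pair the p of 2e-05 was the smallest that 100000 resamples can give, and the adjusted p was 0.00015 for r and 0.000225 for rho. Hspa5 also followed Hspd1 (r = 0.699, rho = 0.654, the same adjusted p-values), with 0.768 in series a and 0.643 in series b, and 0.666 without the 2 farthest rats. Genes of the ER, the cytosol and the mitochondria were all among the correlated pairs. Dnajb1 did not pass with Dnaja1 (r = -0.042, rho = -0.082), Hspd1 (r = 0.112, rho = 0.073) or Hsph1 (r = 0.225, rho = 0.26), with adjusted p-values of at least 0.257 for r and 0.163 for rho. Many genes outside the set followed each chaperone gene more closely than its closest partner within it, which by r ranked 24 for Hsph1, 58 for Dnaja1, 150 for Hspd1, 172 for Hspa5, 228 for Hspe1, 320 for Hspa8, 489 for Hsp90aa1, 819 for Clgn, 836 for Hspb1 and 2261 for Dnajb1 among the 13703 genes whose mean was 20 or more. The median r of each of the 10 genes with those genes lay between -0.004 and 0.035.

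Dnaja1 varied with Hsph1 (r = 0.606, rho = 0.615, adjusted p = 0.00015 and 0.00036) and kept 0.773 in series a and 0.507 in series b, and 0.533 without the 2 farthest rats. Hspd1 and Hspe1, the head-to-head pair, had r = 0.609 and rho = 0.542 over all rats (adjusted p = 0.00015 and 0.00135), but the relation stood in series a (0.86) and not in series b (-0.02), and r was 0.445 without the 2 farthest rats. Hspb1 stood apart, with a median r of -0.02 with the other 9 genes, and passed with Dnajb1 alone (r = 0.393, rho = 0.403, adjusted p = 0.0212 and 0.0194), at 0.715 in series a and 0.476 in series b, 0.419 without the 2 farthest rats and 0.105 with total scaling. Clgn had a median r of 0.043 and passed with Dnaja1 alone (r = 0.357, rho = 0.348, adjusted p = 0.0402 and 0.048), at 0.301 in series a and 0.253 in series b, and 0.37 without the 2 farthest rats. The values of each pair share library and scaling. With total scaling the number of pairs past the threshold was 17, and in series b alone 10.

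**Figure D3:**
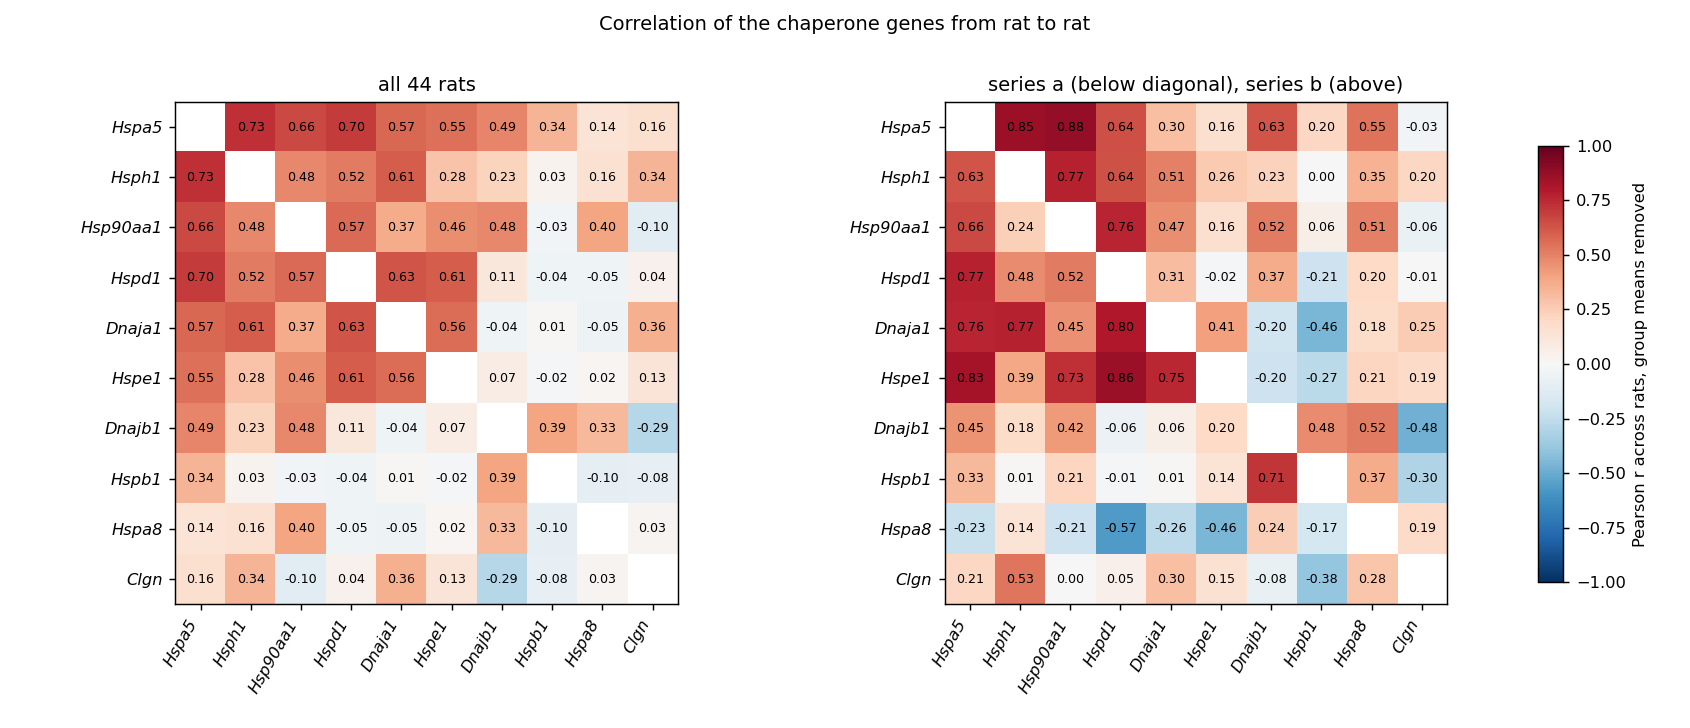
Pearson r between the chaperone genes across rats after centring on group means, for all 44 rats (left) and for series a below and series b above the diagonal (right). The block of Hspa5, Hsph1, Hspd1, Dnaja1 and Hsp90aa1 was positive in both series, and Hspd1 with Hspe1 was 0.86 in series a and -0.02 in series b.

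Some genes followed markers of cell types. Hsph1 rose with the granule cell markers from rat to rat (r = 0.632, rho = 0.56, permutation test, adjusted p = 0.0024 and 0.006 over 120 relations), with 0.654 in series a and 0.652 in series b, and 0.448 without the 2 farthest rats. It ran opposite to the CA1 markers (r = -0.504, rho = -0.485, adjusted p = 0.0101 and 0.0256), at -0.17 in series a and -0.74 in series b, and r was -0.438 without the 2 farthest rats. By r alone Hsph1 also passed with markers of CA3 and mossy cells (0.467, adjusted p = 0.0285), T and NK cells (-0.493, 0.0172) and oligodendrocytes (-0.458, 0.0378). By rho alone Clgn passed with the endothelial markers (-0.481, adjusted p = 0.0256). Dnajb1 rose with microglial markers (r = 0.55, rho = 0.6, adjusted p = 0.0096 and 0.0024), at 0.41 in series a and 0.769 in series b, and at 0.61 without the 2 farthest rats. Red blood cell markers went with Dnajb1 too (r = 0.516, rho = 0.553, adjusted p = 0.0101 and 0.0096), at 0.461 in series a and 0.749 in series b, and at 0.565 without the 2 farthest rats. They also went with Hsp90aa1 (r = 0.512, rho = 0.475, adjusted p = 0.0101 and 0.0256), at 0.559 and 0.533 by series, and at 0.44 without the 2 farthest rats. The summed value of these markers ranged from 2543 to 64350 among AV rats, and elsewhere from 1569 to 18120 (YNG), 2651 to 19570 (AA) and 2336 to 9089 (ADQ). Of the 4 genes 2 were lower in AA than in AV, against 3.1% of all genes. How much of the chaperone values the composition of the dissected tissue accounts for was not tested.

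The genes most like each chaperone gene over the 44 rats were read off by r as a description. Hspa5 was followed most closely by Cct3, a subunit of the cytosolic chaperonin (r = 0.882), by Krt26 (0.846) and by Cnbp (0.841). Hsp90aa1 was followed by Wdr12 (0.88), by the chaperonin subunit Cct2 (0.864) and by Vdac3, a channel of the outer mitochondrial membrane (0.86). Among the genes closest to Hsph1, after Rspo3 (0.803) and Cdh13 (0.784), was Stip1 (0.776), the HOP protein that joins HSP70 to HSP90. Hspd1 was closest to Nap1l1 (0.86), Sucla2 (0.853) and AC095947.1 (0.846), and Hspe1 to the proteasome subunit Psma4 (0.799), Cdk11b (0.798) and the calmodulin gene Calm2 (0.784).

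For the other genes the likeness was weaker or led elsewhere. Dnaja1 was closest to AABR07002683.1 (0.779), Rnf19a (0.775) and Rab2a (0.76). Dnajb1 was closest to LOC100363452 (0.857), to Ddost, a subunit of the ER oligosaccharyltransferase (0.855), and to Clptm1 (0.855). The gene closest to Hspb1 was Gpr4, a proton-sensing receptor of endothelial cells (0.728), ahead of LOC108348172 (0.664) and Preb (0.637). Clgn was closest to Gpr155 (0.682), Dpy19l3 (0.672) and Klhl2 (0.666), and Hspa8 to Slc25a18 (0.687), Jkamp (0.682) and Pdk3 (0.664).

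Of 118 other genes of protein folding, in 10 lists by role, 112 were tested. In AV compared with YNG 7 were higher and 28 lower, 6.25% and 25% of those tested against 10.6% and 10.7% of all genes, with a median difference of -0.09. In AA against YNG 9 were higher and 33 lower (8.04% and 29.5%, against 12.6% and 14.1%), with a median of -0.08. In ADQ against YNG 14 were higher and 32 lower (12.5% and 28.6%, against 13.5% and 14.6%), with a median of -0.06. With total scaling the counts became 16 and 11 in AV (14.3% and 9.82%, against 18.1% and 4.21% of all genes), 27 and 11 in AA (24.1% and 9.82%, against 28.3% and 4.89%), and 32 and 13 in ADQ (28.6% and 11.6%, against 27.7% and 5.82%). In series b alone AV against YNG gave 2 higher and 2 lower (1.79% each, against 3.74% and 2.53%).

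The cytosolic chaperonin and its helper prefoldin fold actin and tubulin, and they held 10 of the 28 lower calls in AV. Of 14 genes 10 were lower in AV, 13 in AA and 11 in ADQ than in YNG (71.4, 92.9 and 78.6%, against 10.7, 14.1 and 14.6% of all genes), and none was higher, with medians of -0.29, -0.35 and -0.34. Total scaling left 4, 5 and 5 of them lower (28.6, 35.7 and 35.7%, against 4.21, 4.89 and 5.82%), with medians of -0.19, -0.20 and -0.20. In series a 12, 11 and 8 were lower (against 18.2, 16.0 and 15% of all genes), and in series b none, 1 and none (against 2.53, 5.16 and 2.56%), with medians of -0.06, -0.20 and -0.24. Without AV rat 4009 the AV count was 7. Cct5, a chaperonin subunit, fell by 0.46 in AV (p = 0.000666, adjusted p = 0.037), with -0.75 in series a and -0.15 in series b. It fell by 0.55 in AA (p = 9.36e-05, adjusted p = 0.0239), with -0.67 and -0.42 by series. The prefoldin subunit Pfdn5 was lower in AA than in YNG by 0.82 (adjusted p = 0.0416), with -1.14 in series a and -0.49 in series b.

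Co-chaperones of HSP70 and HSP90 gave lower calls too. Of 10 HSP70 co-chaperones 3 were lower in AV, 5 in AA and 6 in ADQ than in YNG, and 1, 1 and none were higher. Over all genes 10.7, 14.1 and 14.6% were lower and 10.6, 12.6 and 13.5% higher. Total scaling left 2, 1 and 3 lower, against 656, 762 and 908 of all 15598 genes. Bag1, a nucleotide exchange factor of HSP70, was lower in AA than in YNG by 0.46 (adjusted p = 0.0295), with -0.53 in series a and -0.35 in series b. Of 12 genes of the HSP90 family and its co-chaperones 4, 3 and 4 were lower and none was higher. Fkbp4, the HSP90 co-chaperone FKBP52, fell by 0.33 in AV (adjusted p = 0.0301) and by 0.35 in ADQ (adjusted p = 0.0198), with -0.54 and -0.48 in series a and -0.09 and -0.21 in series b.

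In the HSP70 family 1 of 9 tested genes was higher in AV than in YNG, near the share of 10.6% over all genes. This was Hspa12b, a distant HSP70 relative expressed in endothelial cells, higher by 0.75 (p = 7.05e-05, adjusted p = 0.0109), with 1.13 in series a and 0.21 in series b. It was lower than in AV by 0.52 in ADQ (p = 0.0032, adjusted p = 0.266) and by 0.42 in AA (p = 0.0149, adjusted p = 0.999). By series a and b these differences were -0.57 and -0.47 in ADQ, and -0.27 and -0.54 in AA. As for Hspb1, the endothelial markers moved in the same comparisons. None of the 9 genes passed in AA against YNG, and 2 were higher in ADQ against YNG, against 13.5% of all genes. Of 5 small heat shock proteins tested, Cryab, the lens and glial protein alphaB-crystallin, was higher in AV than in YNG by 0.41 (p = 0.0196, adjusted p = 0.158), with 0.24 in series a and 0.66 in series b. In AA Cryab stood above YNG by 0.35 (p = 0.0511), and passed with upper quartile (p = 0.0296) and total scaling (p = 0.00368). In ADQ the difference was 0.18 (p = 0.3). No other gene of that list passed against YNG, and 1 was lower in ADQ than in AV, against 5.9% of all genes.

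The remaining lists differed in the direction of their calls, and in AV the ER and mitochondrial lists had lower calls alone. Over all genes 10.6, 12.6 and 13.5% were higher and 10.7, 14.1 and 14.6% lower in AV, AA and ADQ against YNG. Of 23 ER chaperones 6 were lower and none higher in AV, 5 lower and 2 higher in AA, and 6 lower and 3 higher in ADQ, each against YNG. With total scaling 2 were lower and 1 higher in AV, 2 and 6 in AA, and 1 and 8 in ADQ. That scaling raised the higher calls over all 15598 genes too, to 2820, 4413 and 4315, with 656, 762 and 908 lower. Serpinh1, the collagen chaperone HSP47, stood below YNG in ADQ by 0.46 (adjusted p = 0.0228), with -0.54 in series a and -0.38 in series b. Of 10 mitochondrial chaperones and proteases 3 were lower in each older group, and none, 1 and 3 were higher. Of 17 J-domain proteins 2, 2 and 3 were higher (11.8, 11.8 and 17.6%) and 1, 3 and 1 lower (5.88, 17.6 and 5.88%), near the shares over all genes, among them Dnajc13, an endosomal J-domain protein, higher in ADQ by 0.47 (adjusted p = 0.0223), with 0.60 in series a and 0.31 in series b. Of 8 regulators of the unfolded protein response tested 1 was higher and 1 lower in AV, and 3 were higher and 1 lower in both AA and ADQ. With total scaling 5, 5 and 3 were higher and none, 1 and 1 lower, beside the raised number of higher calls over all genes given above. Of 4 heat shock transcription factors tested 1 was higher in AV and none passed in AA or ADQ. Hsf1, the master regulator of the heat shock response, passed in no comparison, and its difference between AV and YNG was -0.08 with an interval of -0.31 to 0.15.

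Between older groups fewer of these genes passed than against YNG. In AA against AV 1 of 112 was lower (Hspa12b) and none was higher, against 3.1% and 1.4% of all genes. In ADQ against AV 9 of 112 were higher and 4 lower, against 3.42% and 5.9% of all genes. Hyou1, the ER chaperone GRP170, was higher by 0.24 (p = 0.0148, adjusted p = 0.428). Its difference was 0.08 in series a (p = 0.522) and 0.39 in series b (p = 0.012). Ppp1r15a, the phosphatase subunit GADD34 that ends the translational arm of the unfolded protein response, was lower by 0.23 (p = 0.00924, adjusted p = 0.399). For Ppp1r15a series a gave -0.13 (p = 0.369) and series b -0.31 (p = 0.00558). In series b treatment and block of numbers cannot be told apart. In AA against ADQ 4 of 112 were higher and 7 lower, against 2.13% and 2.4% of all genes. Herpud1, a gene of ER-associated degradation, was higher in AA by 0.20 (p = 0.00339, adjusted p = 0.981), and Ppp1r15a by 0.21 (p = 0.0166, adjusted p = 0.981). In series a alone these differences were 0.11 (p = 0.292) and 0.19 (p = 0.2). Dnaja4, a J-domain protein, was lower by 0.23 (p = 0.0152, adjusted p = 0.981), with -0.28 in series a alone (p = 0.0199).

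**Figure D4:**
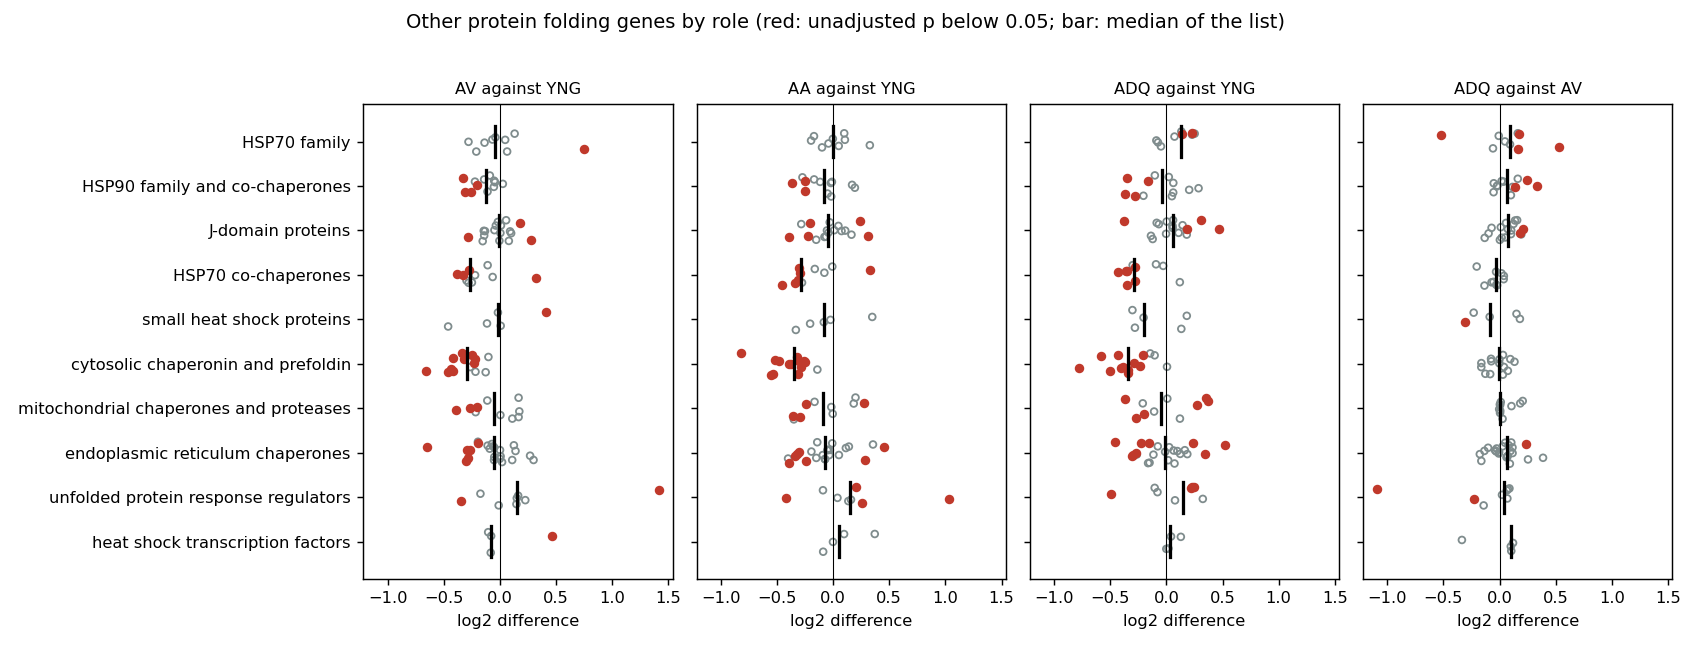
Log2 difference of each of 112 other protein folding genes (1 point per gene) by role, for AV, AA and ADQ against YNG and for ADQ against AV, with a bar at the median of each list and red for an unadjusted p below 0.05. The cytosolic chaperonin and prefoldin list had medians of -0.29, -0.35 and -0.34 against YNG and -0.0013 in ADQ against AV.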

How the data were processed

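Transcripts were measured by poly(A) RNA sequencing of the DG of 44 rats. Per the paper's methods and the submitters' processing notes, the authors trimmed reads in Partek Flow, aligned them with STAR 2.5.3a to rn6, excluded genes with fewer than 5 counts, applied median ratio normalisation and tested with DESeq2. The annotation, counter and strand setting are not given in the sources used here. The deposited signal values are those normalised counts, in 1 table of 24694 rows and 18347 gene identifiers. Raw counts per library were not used here, so sequencing depth is unknown. The groups of the older rats come from the deposited attributes table, matched by rat name.

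Rows were summed per identifier, and log2(value + 1) of the 15598 genes with a mean of at least 5 was fitted in limma 3.58.1 (R 4.3.3, empirical Bayes with trend), 1 fit for all 4 groups, two-sided, with Benjamini-Hochberg adjustment over all genes. On data simulated with independent normal noise and a log2 change of 1, 93.5 to 96.5% of changed genes were recovered. Of the unchanged genes 4.74 to 4.98% were called. The called differences of the chaperone genes were smaller than that change, and recovery at their size was not simulated. The number of rats per group limits the precision. Each limma p-value sets a group difference against the spread between rats, moderated over all genes. Correlations used scipy 1.17.1 and values centred on group means. Their p-values come from permuting rats in 100000 resamples, with adjustment over 45 pairs of chaperone genes or 120 relations with marker lists. Marker lists were scored as mean log2 values.

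The chaperone genes, the 10 lists by role and the 12 marker lists were chosen with earlier results of these data known. Named in every comparison were the 10 genes, and from the lists Hsf1, Hsp90ab1, Hsp90b1, Hspa9 and Cryab, with values given where they bear on a result. Also named were the 3 list genes with the smallest p past the threshold at a mean of at least 20 in each comparison, and the 3 genes most like each chaperone gene. Alternatives were other pseudocounts, filters and scalings, series as a covariate or alone, array weights, the 2 groups alone, the highest row of a gene, and each rat left out. The library total as a covariate and the removal of rats above 5% AABR07000398.1 were added after the data were seen.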

Additional observations from a re-analysis of the deposited data

How the results depend on the processing

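Counts of chaperone genes past the threshold are given in the order AV, AA and ADQ against YNG, AA and ADQ against AV, and AA against ADQ, and were 4, 2, 1, 0, 3 and 1. Array weights gave 7, 5, 3, 0, 5 and 2, the 2 groups alone 2, 2, 1, 1, 3 and 2, the highest row of each gene 4, 2, 1, 0, 3 and 2, series a alone 3, 2, 0, 1, 0 and 2, series b alone 1, 0, 0, 0, 2 and 0, and series as a covariate 4, 2, 1, 1, 3 and 1. Total scaling gave 1, 1, 2, 0, 3 and 1 and upper quartile scaling 1, 2, 1, 0, 3 and 1. Over all 15598 genes the higher and lower calls against YNG were 1651 and 1675 (AV), 1959 and 2194 (AA) and 2104 and 2282 (ADQ). With total scaling they were 2820 and 656, 4413 and 762, and 4315 and 908. Upper quartile scaling made them 2011 and 1284, 2383 and 1838, and 2529 and 1948. Added after the data were seen, the library total as a covariate gave 2, 1, 1, 0, 2 and 2, and leaving out rats above 5% AABR07000398.1 gave 1, 3, 1, 0, 1 and 1. With 1 rat left out the counts ranged from 1 to 4, 1 to 3, 0 to 1, 0 to 1, 2 to 4 and 0 to 2. Calls over all genes were not counted for array weights, the 2 groups alone, the highest row or the covariates. Whether those counts moved more than the calls over all genes is therefore not known.

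The call in AV against YNG was lost without any of 13 rats for Hspa5 (V2, V3, V4, V9, V12, 3999, 4009, 4010, 4011, 4566, 4568, 4569 or 4571, p = 0.0516 to 0.122), of 9 for Hsph1 (V1, V3, V5, V9, 3989, 4009, 4010, 4568 or 4571, p = 0.0535 to 0.098) and of 4 for Dnaja1 (V5, V10, 4009 or 4568, p = 0.053 to 0.0837). Hspd1 in AA against YNG was lost without V5, V12, 3983 or 3988 (p = 0.0533 to 0.0653). Hspb1 in ADQ against AV was lost without 3890, 4566, 4572, 4006 or 4007 (p = 0.05 to 0.109), and Dnaja1 in AA against ADQ without 3983, 3984 or 3988 (p = 0.0537 to 0.0645).

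In ADQ against AV, leaving out rats above 5% AABR07000398.1 took Hsph1 to p = 0.0783 and Hspb1 to 0.0605. In AA against ADQ, the count of 1 with total scaling was Dnajb1 in place of Dnaja1.

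For the other protein folding genes the counts, in the same order, were 35, 42, 46, 1, 13 and 11. Array weights gave 72, 62, 70, 4, 20 and 15, the library total as a covariate 12, 9, 8, 3, 14 and 15, series a alone 50, 39, 38, 2, 5 and 7, series b alone 4, 13, 7, 3, 12 and 4, total scaling 27, 38, 45, 3, 17 and 6, upper quartile scaling 36, 43, 43, 2, 13 and 10, the 2 groups alone 26, 47, 48, 2, 10 and 11, and removal of rats above 5% AABR07000398.1 33, 49, 44, 5, 8 and 3. With 1 rat left out they ranged over 29 to 50, 37 to 51, 34 to 49, 1 to 6, 8 to 18 and 5 to 15. For array weights, the 2 groups alone and the covariate these counts too have no share over all genes beside them. The number of correlated pairs was 19, and 10 in series b alone. No direction of a called difference was reversed, and the cause of the other changes was not tested. No paired analysis was possible because the rats of different groups share no animal or litter in the labels.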

Other observations

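Outside the naming rule, 3 further genes of the lists by role were picked after their values were seen, Atf3 and Xbp1 from the unfolded protein response and Hspa1b from the HSP70 family. Their differences are therefore given as a description with no test. Atf3, a stress-induced transcription factor with a low level here, was higher in AV (mean 15.8) than in YNG (4.77) by 1.41 on the log2 scale, with 1.56 in series a and 1.32 in series b. Its YNG mean lay below the filter of 5, which it passed through the older groups. It was lower in ADQ (7.33) than in AV by 1.09 and higher in AA (11.6) than in YNG by 1.03. Xbp1, the transcription factor that IRE1 activates by splicing, stood below YNG (mean 1140) in ADQ (782) by 0.49, with -0.64 in series a and -0.32 in series b. It was also lower than in YNG in AV (894.4) by 0.35 and in AA (826.3) by 0.42, and ADQ differed from AV by -0.14. Hspa1b, an inducible HSP70 with a near-identical copy, was higher in ADQ (198.1) than in AV (148.2) by 0.53, with 0.36 in series a and 0.69 in series b.

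Immediate early genes, which follow neuronal activity and stress, were called between the treatments more often than all genes, at an unadjusted p. Of 12 listed genes 7 (58.3%) were higher in AA than in ADQ, against 2.13% of all genes. None was lower, and the median difference was 0.59. The smallest adjusted p in limma over all genes in that comparison was 0.981. In AA against YNG 7 were higher (58.3%, against 12.6%). Within groups no relation of Clgn to these genes was detected (r = -0.11, rho = -0.165, permutation test, adjusted p = 0.633 and 0.523), with -0.029 in series a, -0.2 in series b and -0.1 without the 2 farthest rats. In ADQ against AV 3 were lower, against 5.9% of all genes. Their summed value lay between 7153 and 13110 in AA and between 5645 and 13250 in ADQ.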
